A study of Homo sapiens with 27 samples.

Results

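The genes described here are 39 genes of S phase and DNA replication, chosen by symbol and matched to the table of gene values through their Ensembl gene IDs. Of these, 38 were found among the 34464 genes of the table, and all 38 passed the filter on low values that left 14611 genes for testing. UHRF1 was not matched and was not analysed here. By role, 11 members act in the replicative helicase and the licensing of origins, 10 are polymerases or act at the fork, 3 supply nucleotides, 7 act in chromatin and histone supply, 4 in DNA repair and 3 in control of the cell cycle.

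DNA is copied once per cell cycle, in S phase. Before it begins, the MCM2-7 ring is loaded onto origins with the help of CDC6 and is later activated by CDC45 and the GINS complex, after which polymerases, the sliding clamp PCNA and the enzymes that make deoxynucleotides come into play. Many of the genes for these proteins are transcribed by E2F factors as cells pass from G1 into S phase, so in a culture that is not synchronised their mRNA level follows in large part how many cells are in or near S phase. In bulk RNA, fewer cells in S phase and less mRNA per cell cannot be told apart.

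The cells were U2OS, a human osteosarcoma line. They carried a control shRNA, or the shRNA named TPR A or TPR D, both delivered by lentivirus and directed at TPR, a protein of the basket on the nuclear side of the pore. Each culture was split with detergent into a nuclear and a cytoplasmic/ER fraction, some cells having been kept back as the total fraction, and poly(A)+ RNA of each was sequenced. With 3 cultures per shRNA this gave 9 groups of 3 libraries, 27 in all. TPR A and TPR D were compared with the same control cultures, so the values of these comparisons are not independent of each other. The study's methods call the cultures biological replicates, and the labels give only their numbers. In the main fit p-values rest on the spread of libraries within the 9 groups, shared over the fractions and without a term for the culture. They are thus not a measure of the spread of the compared cultures alone. Values are in FPKM (fragments counted per unit of transcript length and of library size), are listed in the order of replicates 1, 2 and 3, and are given as mean ± SD with n = 3 where averaged.

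The libraries were checked before the members were read. TPR mRNA in the total fraction was 28.2, 25.7 and 25.3 FPKM with control shRNA, 4.36, 3.44 and 4.70 with TPR A, and 3.23, 4.74 and 6.01 with TPR D. It fell by 2.59 with TPR A and by 2.44 with TPR D on the log2 scale (limma, adjusted p = 0.0012 and 0.0016). The osteosarcoma label was checked against VIM (854 to 2662 FPKM), SPARC (269 to 949), RUNX2 (6.25 to 25.1) and COL1A1 (20.6 to 87.5), while COL1A2 reached only 0.744 FPKM. KRT18, an epithelial keratin, stood at 130 to 755 FPKM, and HBB was listed at 0 in all 27 libraries. In 25 of 27 libraries the profile was closest to that of other libraries of the same fraction. The exceptions were the nuclear and the total library of control replicate 2: the one labelled nuclear held 21.8% of its FPKM in mitochondrial genes against 0.774 to 2.42% in the other 8 nuclear libraries, and the one labelled total held 0.738% against 15.8 to 24.7% in the other 8. The library labelled nuclear was nearest to the total libraries (r = 0.977 with the mean of the others, against 0.944 for the nuclear ones), and the one labelled total was nearest to the nuclear libraries (r = 0.973 with their mean). Both thus stood against their fraction labels, and an exchange of these labels was not tested. They were kept under their labels, so a nuclear or total value of control replicate 2 is that of the library so labelled, and the group results and the estimates that it moved most are also given without this control culture. Depth is not in the table, but the steps between low values put 1 FPKM on a transcript of 1 kb effective length at 31.7 to 47.8 reads in the cytoplasmic, 45.1 to 60.6 in the nuclear and 40.9 to 87.2 in the total libraries. With the median length of a gene's annotated transcripts in place of the effective length, this put a member at a median of 3609 reads per library. The lowest estimate was 163 reads (CCNE2 in 1 TPR D cytoplasmic library). Both are rough. Using a full length raises them, but the median over annotated transcripts (542.5 nt for UBR7, 696 nt for CDC6) need not be the length of the mRNA present. The direction of the error is thus not known for a given member.

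The start regions of the genes were examined first, because E2F binding is what many of these genes are known to share. The RefSeq table of promoters (GRCh38.p14, 250 bases before to 50 after a start) held 40 promoters of 29 of the members, 9 of which had more than 1. They were searched on both strands for the 4 words TTTCCCGC, TTTGGCGC, TTTCGCGC and TTTGCCGC, exact forms of the E2F motif, whose reverse complements are GCGGGAAA, GCGCCAAA, GCGCGAAA and GCGGCAAA. At least 1 word was present in 17 of 40 promoters, from 17 of 29 genes. That share was 42.5%, against 4.13% of the 21579 promoters of protein-coding genes and 3.31% of all 35116 promoters. The word CCAAT (reverse complement ATTGG), the core of the NF-Y motif, was in 67.5% of member promoters, 34.9% of protein-coding and 34.6% of all promoters. Of the 17 genes, 7 belong to the helicase and licensing group and 4 to the fork group. Words on opposite strands can overlap, as they did in the promoters of MCM2 and MCM6.

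The 100 bases before the start are shown for 5 members that hold a word there and whose values are given by library below, with the matched word in capitals. They lie at chr2:173354772-173354871 (CDCA7, plus strand), chr1:212035648-212035747 (DTL, plus), chr20:5126623-5126722 (PCNA, minus), chr18:657553-657652 (TYMS, plus) and chr12:109098072-109098171 (UNG, plus), and each is written 5′ to 3′ on the strand of its gene.
CDCA7: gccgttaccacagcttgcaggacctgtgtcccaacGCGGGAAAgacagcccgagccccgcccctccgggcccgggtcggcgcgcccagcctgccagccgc
DTL: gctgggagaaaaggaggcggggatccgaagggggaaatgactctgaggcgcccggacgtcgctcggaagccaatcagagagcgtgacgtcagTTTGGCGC
PCNA: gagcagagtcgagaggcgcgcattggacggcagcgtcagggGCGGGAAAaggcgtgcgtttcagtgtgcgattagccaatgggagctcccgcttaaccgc
TYMS: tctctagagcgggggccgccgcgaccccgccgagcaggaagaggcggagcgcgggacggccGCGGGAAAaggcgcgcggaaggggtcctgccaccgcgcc
UNG: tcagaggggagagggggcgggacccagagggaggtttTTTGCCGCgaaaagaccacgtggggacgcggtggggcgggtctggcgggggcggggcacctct
In DTL the word ends at the base before the start. Those of CDCA7, PCNA, TYMS and UNG begin at positions -65, -59, -39 and -63 from it. A match is a run of letters and not a measured binding site.

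All 38 members were above 1 FPKM in every library, the lowest value being 2.40 (CCNE2, control cytoplasmic replicate 3), and their levels spread over a wide range. In the total fraction NASP, which carries histone H1 and H3-H4 in the nucleus, had the highest mean at 449 ± 211 FPKM. MCM4 (311 ± 127), the thymidylate synthase TYMS (279 ± 57.8) and RRM2, the small subunit of ribonucleotide reductase (260.4 ± 118), came next. Neighbours in this order differed by less than the larger of their SDs, and without control replicate 2 TYMS (268) stood above MCM4 (253). At the other end stood E2F8, a repressor of the E2F family (7.77 ± 1.95), the G1/S cyclin CCNE2 (8.63 ± 5.36) and POLA1, the catalytic subunit of polymerase alpha (9.53 ± 3.94), which also differed by less than that. Without that culture POLA1 was lowest (7.39). Levels of MCM2-7, whose proteins form a ring with 1 copy of each, were unequal per length of mRNA: MCM4 was highest, followed by MCM7 (199 ± 151), MCM5 (170.2 ± 129), MCM3 (147 ± 94.0) and MCM2 (76.8 ± 52.7), with MCM6 lowest (48.9 ± 26.96). Here too each neighbour was within the larger SD of the next, but these SDs hold differences between cultures that the genes shared. Within each control total library the order was the same, except that MCM3 (73.4 FPKM) was above MCM5 (70.3) in replicate 3. In control replicates 1 and 3 alone the ring genes averaged 253 (MCM4), 114 (MCM7), 97.1 (MCM5), 94.1 (MCM3), 46.8 (MCM2) and 34.2 FPKM (MCM6), in the same order.

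The first question was whether the S-phase genes changed in the total fraction after TPR depletion. None of the 38 passed an adjusted p of 0.05 (limma over 14611 genes) with TPR A, with TPR D or with both shRNAs jointly, although most estimates lay below control. At an unadjusted p under 0.05 the count was 3 with TPR A, 6 with TPR D and 6 with both, all lower. Among all genes tested 0.821% were called with TPR A, 0.753% with TPR D and 1.14% with both. The median member difference was -0.34 (log2) with both shRNAs, against -0.01 over all genes, and 30 of 38 members were below 0, against 51.2% of all genes. For TPR A alone the median was -0.27 with 28 members below 0, and for TPR D alone -0.38 with 33 below. The share of members at an unadjusted p under 0.05 with both shRNAs (15.8%) was close to that of all genes (16.1%).

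**Figure D1:**
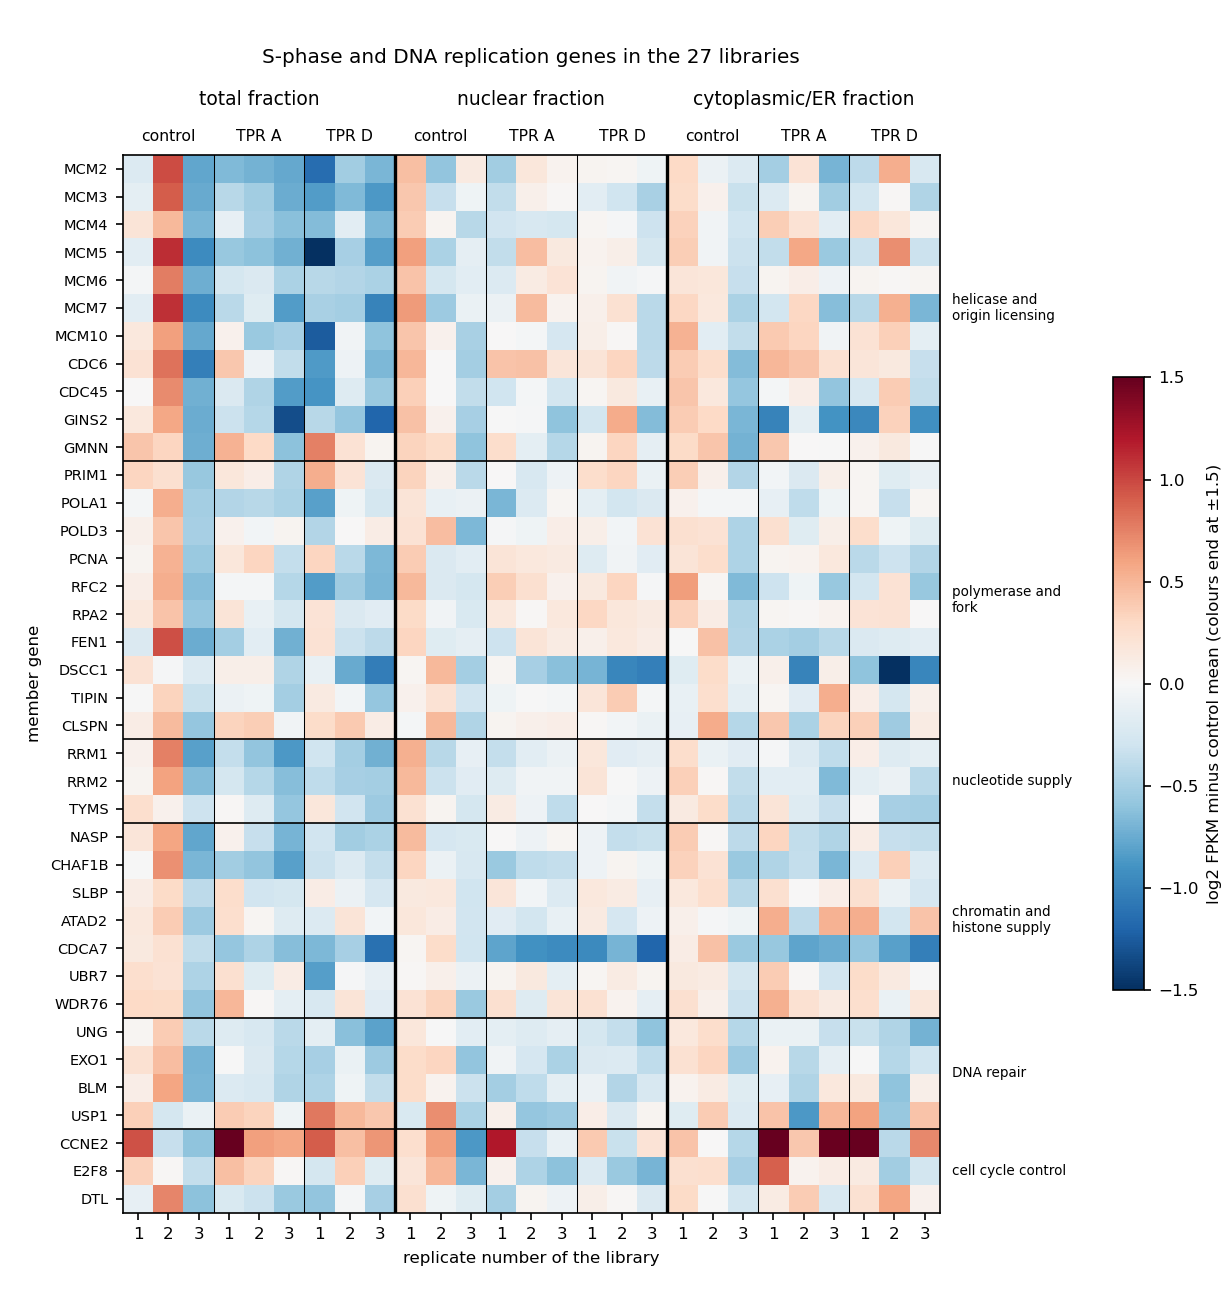
Level of each of the 38 members (vertical axis, grouped by role) in each of the 27 libraries (horizontal axis, replicate number within shRNA and fraction), as log2 FPKM minus the mean of the 3 control libraries of the same fraction. Blue is lower and red is higher than the control mean, and colours end at ±1.5. The total library of control replicate 2 is red for most genes and that of control replicate 3 blue, and the CDCA7 line is blue in all 18 TPR shRNA libraries.

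The 6 members at an unadjusted p under 0.05 with both shRNAs were MCM2, MCM3 and MCM5 of the helicase ring, RRM1, the large subunit of ribonucleotide reductase, CDCA7, a chromatin protein and known target of MYC and E2F, and the uracil-DNA glycosylase UNG. Their adjusted p-values ran from 0.11 (CDCA7) to 0.277 (MCM5). By role, the helicase and licensing group had the lowest median (-0.52, with 10 of 11 members below 0). The 3 nucleotide genes had a median of -0.45, the 4 repair genes -0.30, the 10 fork genes -0.15 and the 7 chromatin genes -0.13. The 3 cell cycle control genes had a median of 0.12, with only DTL below 0. Without control replicate 2 these medians were -0.18 for helicase and licensing, -0.18 for nucleotide, -0.04 for repair, 0.16 for fork, -0.03 for chromatin and 0.13 for cell cycle control genes. The typical 95% interval of a member reached 0.49 on either side of its estimate, and for 27 of 38 members it lay within a 2-fold difference either way.

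In the total fraction the highest member of each role group, with its value in each library, showed how this median arose. NASP stood at 462, 652 and 232 FPKM with control, at 412, 311 and 243 with TPR A and at 318, 274 and 279 with TPR D. MCM4 stood at 331, 427 and 175 FPKM with control, at 258, 198 and 181 with TPR A and at 175, 249.7 and 173 with TPR D. TYMS was at 323, 299.5 and 213 with control, at 267, 229 and 176 with TPR A and at 291, 215 and 177 with TPR D. For these 3 genes the third control library was below 4 or more of the 6 TPR shRNA libraries, and the groups overlapped. The estimates for both shRNAs were -0.38 (95% interval -0.91 to 0.15, adjusted p = 0.473) for NASP, -0.45 (-0.92 to 0.01, adjusted p = 0.322) for MCM4 and -0.24 (-0.67 to 0.20, adjusted p = 0.589) for TYMS. Leaving out control replicate 2 gave -0.08, -0.21 and -0.21.

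PCNA, the clamp that holds polymerases on DNA, was at 128, 189 and 82.6 FPKM with control in the total fraction, at 135, 151 and 94.1 with TPR A and at 148, 91.2 and 74.4 with TPR D. UNG was at 41.6, 56.1 and 30.2 with control, at 34.6, 33.5 and 29.7 with TPR A and at 35.2, 25.5 and 22.4 with TPR D. DTL, the substrate receptor of a ubiquitin ligase that acts in S phase, was at 18.98, 36.7 and 13.2 with control, at 17.1, 15.97 and 13.6 with TPR A and at 13.1, 19.7 and 14.0 with TPR D. The groups overlapped for each of the 3, and the highest library was the control of replicate 2 and the lowest a TPR D library. The log2 differences with both shRNAs were -0.10 for PCNA (adjusted p = 0.854), -0.40 for UNG (-0.78 to -0.03, adjusted p = 0.274) and -0.37 for DTL (adjusted p = 0.427). Leaving out control replicate 2 turned the sign for PCNA (0.16) and gave -0.21 for UNG and -0.0031 for DTL.

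**Figure D2:**
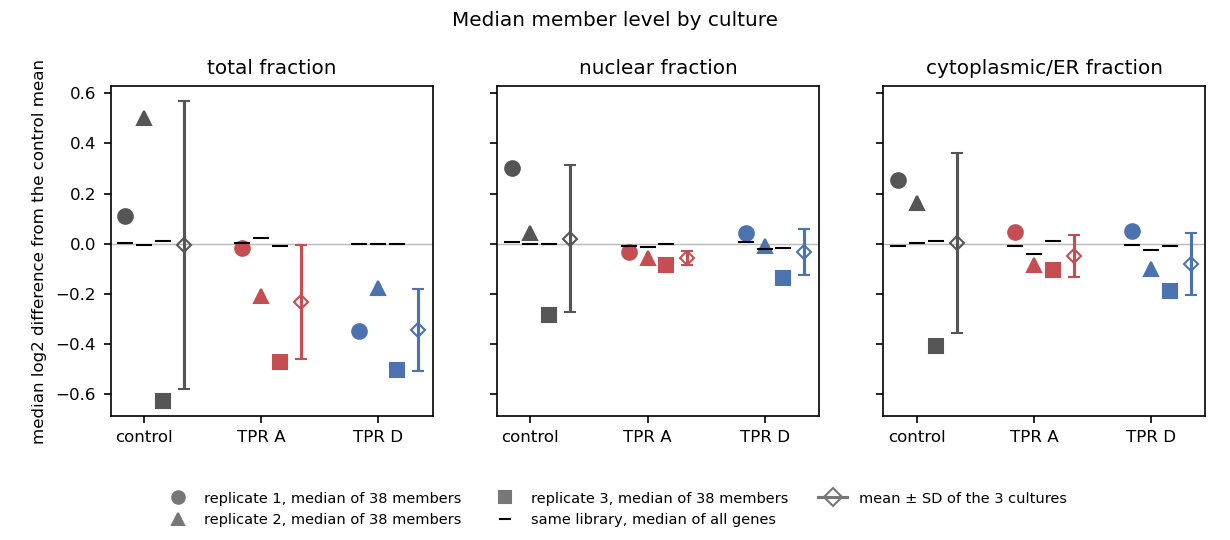
Median over the 38 members of log2 FPKM minus the control mean (vertical axis), by shRNA (horizontal axis) in each fraction. Filled symbols are single cultures by replicate number, diamonds with bars are the mean ± SD of 3 cultures, and dashes are the median of all 14611 genes in the same library. In the total fraction the control cultures run from -0.63 to 0.50 and span all TPR shRNA cultures, while the dashes stay near 0.

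The control cultures themselves differed in the level of these genes, and by more than the shRNAs differed from control. In the total fraction the median member deviated from the control mean by 0.11, 0.50 and -0.63 in the 3 control cultures (SD 0.57), by -0.02, -0.21 and -0.47 with TPR A (SD 0.23) and by -0.35, -0.18 and -0.51 with TPR D (SD 0.16). All 6 TPR shRNA cultures lay between the lowest and the highest control culture, and also between control replicates 3 and 1, whose libraries matched their fraction labels. Control replicate 3 was the lowest of the 3 control libraries for 37 of 38 members in the total fraction, for 27 in the nuclear and for 36 in the cytoplasmic fraction. Among all genes it was the lowest for 30.8, 31.8 and 35.3%. Against control replicate 1 its members had a median difference of -0.70 in the total, -0.59 in the nuclear and -0.65 in the cytoplasmic fraction, and 38, 38 and 37 of 38 were lower, while all genes were split near 50% in each fraction. Control replicate 3 was thus low in S-phase mRNA in 3 separately made libraries, none of which is among the 2 that stood apart in fraction.

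Which control cultures were used therefore set the size of the difference. Without control replicate 2, the median of the members with both shRNAs in the total fraction was -0.02 (24 of 38 below 0). No member was then called by limma and 1 had an unadjusted p under 0.05. Without control replicate 3, the median was -0.66, and 5 members fell (CDCA7, CHAF1B, MCM3, MCM4 and RRM1, adjusted p from 0.0315 for CDCA7 to 0.0491 for MCM4), beside 1.7% of all genes. In the culture of replicate 1 alone the median was -0.29, and in replicates 2 and 3, whose columns carry headers of another style, it was -0.33. Set against the control of the same number, TPR A and TPR D members had medians of -0.15 and -0.44 in replicate 1, of -0.69 in both cases in replicate 2, and of 0.11 and 0.17 in replicate 3. The sign thus turned with control replicate 3. Whether this control culture differed in growth, density or infection was not tested.

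**Figure D3:**
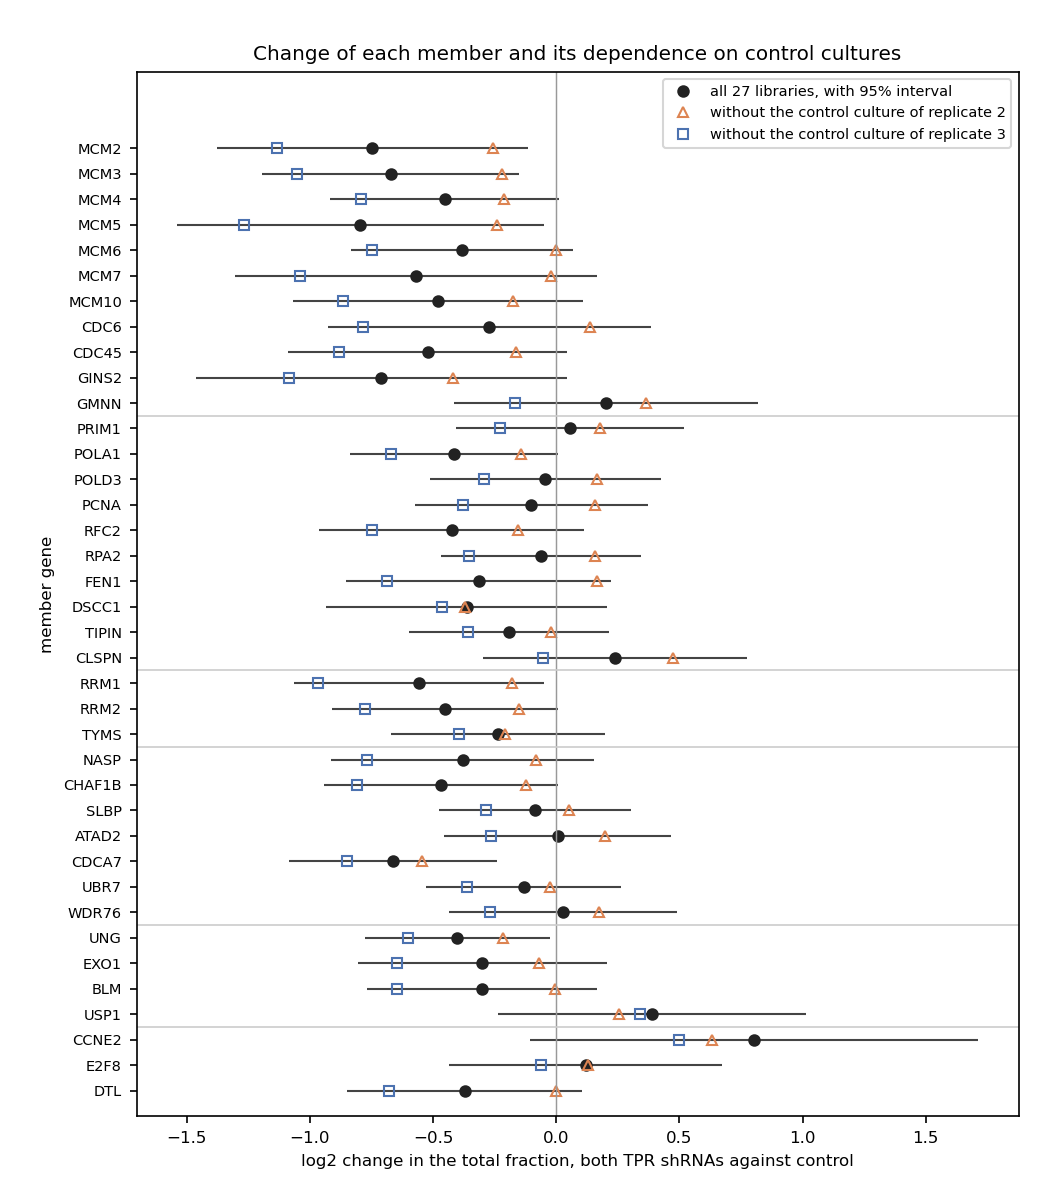
Log2 change of each member in the total fraction with both TPR shRNAs against control (horizontal axis), by gene (vertical axis). Black points with bars are all 27 libraries with the 95% interval, triangles leave out the control culture of replicate 2 and squares that of replicate 3. Triangles gather around 0 (median -0.02) and squares mostly lie below -0.25 (median -0.66), with CDCA7 below 0 in each case.

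MCM5, named because it had the lowest estimate, owed most of it to 1 control library. In the total fraction it was at 124, 316 and 70.3 FPKM with control, at 90.7, 87.4 and 81.4 with TPR A and at 45.6, 94.8 and 74.6 with TPR D. The second control library, the one labelled total that was nearest to nuclear libraries, was more than 2 times as high as any other, and the third lay below 5 of the 6 TPR shRNA libraries. The estimate was -0.80 (-1.54 to -0.05, adjusted p = 0.277), and without control replicate 2 it was -0.24 (-0.97 to 0.49, adjusted p = 0.933). MCM2 (-0.75, adjusted p = 0.229), MCM3 (-0.67, adjusted p = 0.186), GINS2 (-0.71, adjusted p = 0.338) and RRM1 (-0.56, adjusted p = 0.262) followed the same order of control cultures. With that culture left out they stood at -0.26, -0.22, -0.42 and -0.18. In the nuclear fraction MCM5 stood at 269, 123 and 157 FPKM with control, 131, 238 and 194 with TPR A and 181, 184 and 142 with TPR D, a difference of 0.02 (adjusted p = 0.988), or of -0.22 (adjusted p = 0.921) without control replicate 2.

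CCNE2, the cyclin that with CDK2 drives entry into S phase, had the highest estimate and was also named for that. It was at 14.8, 6.30 and 4.83 FPKM with control in the total fraction, at 22.4, 11.3 and 11.0 with TPR A and at 13.7, 10.1 and 11.5 with TPR D. In the cytoplasmic fraction it was at 4.50, 3.29 and 2.40 with control, 9.62, 4.34 and 9.27 with TPR A and 10.0, 2.42 and 5.42 with TPR D. Each TPR A library was above the control library of the same number in both fractions, but the groups overlapped. The differences were 0.80 (-0.11 to 1.71, adjusted p = 0.366) in the total and 0.90 (adjusted p = 0.446) in the cytoplasmic fraction, and 0.63 and 0.90 without control replicate 2. Exons of CCNE2 overlap those of INTS8 on the opposite strand over 1629 nt, and how strand was used in quantification is not given in the sources used here.

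In the nuclear and cytoplasmic fractions the members as a group stood nearer to control. With both shRNAs the median was -0.07 in the nuclear fraction (22 of 38 below 0) and -0.10 in the cytoplasmic fraction (21 of 38), against -0.02 over all genes in each. Without control replicate 2 these medians were -0.10 and -0.04. In the nuclear fraction no member was called by limma with TPR A (1 at an unadjusted p under 0.05) or with TPR D (2), and 1, CDCA7, fell with both shRNAs together. Of all genes 0.903, 0.479 and 0.808% were called in these 3 comparisons. In the cytoplasmic fraction no member was called with TPR A (2 at an unadjusted p under 0.05), TPR D (3) or both (2), while 0.623, 0.575 and 0.643% of all genes were. The 95% interval lay within a 2-fold difference either way for 35 members in the nuclear and 34 in the cytoplasmic fraction. Culture medians in the nuclear fraction were 0.30, 0.04 and -0.28 with control, -0.03, -0.06 and -0.09 with TPR A and 0.04, -0.01 and -0.14 with TPR D. In the cytoplasmic fraction they were 0.25, 0.16 and -0.41 with control, 0.04, -0.09 and -0.11 with TPR A and 0.05, -0.10 and -0.19 with TPR D.

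MCM4 may stand for the high members in these fractions. It was at 446, 343 and 253 FPKM in the nuclear fraction with control, at 271, 287 and 285 with TPR A and at 346, 335 and 269 with TPR D. In the cytoplasmic fraction it was at 202, 151 and 127 with control, 195, 180.4 and 139.7 with TPR A and 192, 174 and 158 with TPR D. All TPR shRNA libraries lay within the range of the controls in both fractions. NASP in the nuclear fraction was at 702, 410.1 and 422 with control, 485, 472 and 511 with TPR A and 469, 385 and 387 with TPR D. TYMS in the cytoplasmic fraction was at 360, 389.9 and 244 with control, 355, 280.2 and 252 with TPR A and 323, 226 and 225 with TPR D. For both NASP and TYMS the libraries of TPR D replicates 2 and 3 were below all controls, and those of TPR A lay within the control range. PCNA in the nuclear fraction was at 198, 128 and 133 with control, 168, 168 and 166 with TPR A and 132, 145 and 131 with TPR D, a difference of 0.01 (-0.46 to 0.49, adjusted p = 0.987), or of -0.09 without control replicate 2. UNG in the nuclear fraction was at 51.7, 44.4 and 40.3 with control, 40.1, 39.7 and 41.6 with TPR A and 37.8, 35.2 and 29.1 with TPR D (difference -0.28, adjusted p = 0.575), 5 of 6 being below the lowest control. DTL in the nuclear fraction was at 29.3, 23.2 and 21.5 with control, 16.8, 25.1 and 23.4 with TPR A and 26.0, 24.7 and 20.7 with TPR D, a difference of -0.11 (adjusted p = 0.884).

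CDCA7 was the only member whose 6 TPR shRNA libraries were all below its 3 control libraries, and this held in each of the 3 fractions. No member was above all controls. Over all genes such a separation in either direction was seen for 6.92% in the total, 6.21% in the nuclear and 5.39% in the cytoplasmic fraction. Among the members it was 1 of 38 (2.63%) in each fraction, below the share of all genes. The 3 fractions came from the same cultures and are not separate tests. The share of all genes set apart in all 3 was not counted here. CDCA7 was at 9.93, 11.5 and 7.75 FPKM in the nuclear fraction with control, at 5.39, 5.05 and 4.99 with TPR A and at 4.91, 5.85 and 4.06 with TPR D. In the total fraction it was at 10.6, 11.9 and 7.19 with control, at 6.15, 6.70 and 5.89 with TPR A and at 5.70, 6.54 and 4.15 with TPR D. In the cytoplasmic fraction it was at 9.13, 11.3 and 5.58 with control, at 5.37, 4.71 and 4.88 with TPR A and at 5.43, 4.60 and 3.99 with TPR D. The groups were apart by the least in the cytoplasmic fraction, where the lowest control and the highest TPR shRNA library were 5.58 and 5.43 FPKM.

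CDCA7 fell by 0.92 on the log2 scale in the nuclear fraction (95% interval -1.34 to -0.50, to 0.53 of the control level, adjusted p = 0.0318). The estimates were -0.66 (-1.08 to -0.24, adjusted p = 0.11) in the total and -0.75 (-1.18 to -0.33, adjusted p = 0.0948) in the cytoplasmic fraction, neither past the threshold. Without control replicate 2 the nuclear estimate was -0.78 and its adjusted p 0.159, so the call rested on that culture among others, and the total and cytoplasmic estimates were -0.55 and -0.53. Among the controls CDCA7 was lowest in replicate 3 in each fraction, like most members. The gene (ENSG00000144354) lies at chr2:174219548-174233725 on the plus strand of GRCh37.

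**Figure D4:**
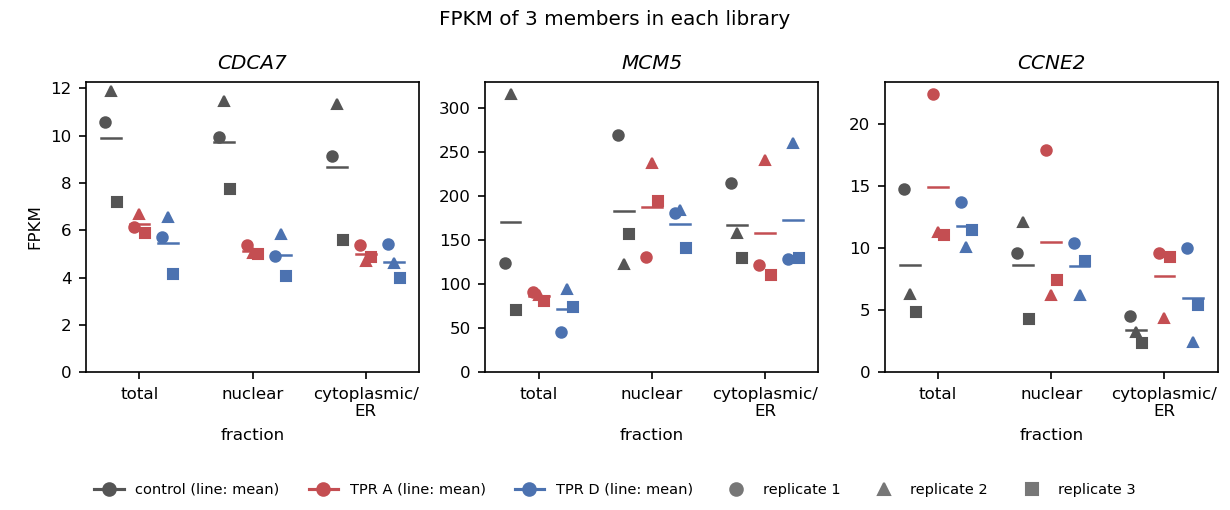
FPKM (vertical axis, linear, from 0) of CDCA7, MCM5 and CCNE2 in each library by fraction (horizontal axis). Colours are shRNAs, symbols are replicate numbers and lines are means of 3 libraries. CDCA7 is lower in all TPR shRNA libraries of each fraction, whereas the control mean of MCM5 in the total fraction is set by replicate 2 at 316 FPKM.

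The summed FPKM of the 38 members gives their weight in the mRNA pool. They made up 0.399 ± 0.116% of non-mitochondrial FPKM in the control total libraries, 0.344 ± 0.034% with TPR A and 0.328 ± 0.029% with TPR D. In the nuclear fraction the shares were 0.431 ± 0.086, 0.389 ± 0.013 and 0.386 ± 0.031%. In the cytoplasmic fraction they were 0.210 ± 0.047, 0.216 ± 0.040 and 0.211 ± 0.044%. Each difference from control was smaller than the SD of the control cultures. The total libraries of control replicates 1 and 3 alone stood at 0.439 and 0.268%, on either side of all TPR shRNA total libraries (0.301 to 0.381%).

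The second question was where the member mRNAs lay in the cell, and whether this changed. In control cells 12 of 38 members were called more nuclear and 1 more cytoplasmic, relative to the median gene, while 20.2% of all genes were called more nuclear and 19.2% more cytoplasmic. This fit did not pair the 2 fractions of a culture. With the culture as a block 17 members were called, the former 13 and CDC6 (0.86), MCM3 (0.71), EXO1 (0.54) and USP1 (0.78, adjusted p = 0.0495), all more nuclear, while 47% of all genes were called in either direction. The median log2 N/C ratio of the members was 0.33, against -0.01 for all genes, and 31 of 38 were above 0. The median was between 0.22 and 0.49 in each of the 9 cultures, so it was above 0 with each shRNA.

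ATAD2, a bromodomain ATPase of chromatin, had the highest N/C ratio. It was at 91.5, 85.8 and 65.4 FPKM in the nuclear and 19.4, 17.8 and 17.3 in the cytoplasmic control libraries, a log2 ratio of 2.17 (1.64 to 2.70, adjusted p = 4.81e-06) or 4.51-fold. The helicase BLM (1.80), POLA1 (1.66), RRM1 (1.53), the checkpoint mediator CLSPN (1.44), the replication initiator MCM10 (1.30), CCNE2 (1.28, adjusted p = 0.0493), NASP (1.21), MCM4 (1.14), MCM6 (0.95), E2F8 (0.89) and DTL (0.79) were also called more nuclear. Partners within a complex differed in place: RRM1 was nuclear while RRM2 had a ratio of 0.14, and POLA1 was nuclear while PRIM1, the primase subunit of the same complex, had a ratio of 0.19. These differences between genes were not tested.

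GINS2, a subunit of the GINS complex, was the 1 member called more cytoplasmic. It was at 34.4, 25.9 and 17.6 FPKM in the nuclear and 80.9, 75.2 and 37.7 in the cytoplasmic control libraries (-1.25, -2.12 to -0.38, adjusted p = 0.0216). RFC2, a subunit of the clamp loader, came next with -0.48 (adjusted p = 0.209). Without control replicate 2, 11 members were called more nuclear and none more cytoplasmic. GINS2 then had a ratio of -1.13 (adjusted p = 0.106, unadjusted p = 0.0422, limma), CCNE2 and E2F8 were no longer past the threshold (0.97, adjusted p = 0.263, and 0.77, adjusted p = 0.127), and MCM3 was (0.91, adjusted p = 0.0134). The members' median was 0.49 in that case. With the culture as a block as well, GINS2, CCNE2, E2F8 and MCM3 were all past the threshold (adjusted p = 0.00677, 0.0312, 0.0212 and 0.00153) and USP1 was not (0.142).

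**Figure D5:**
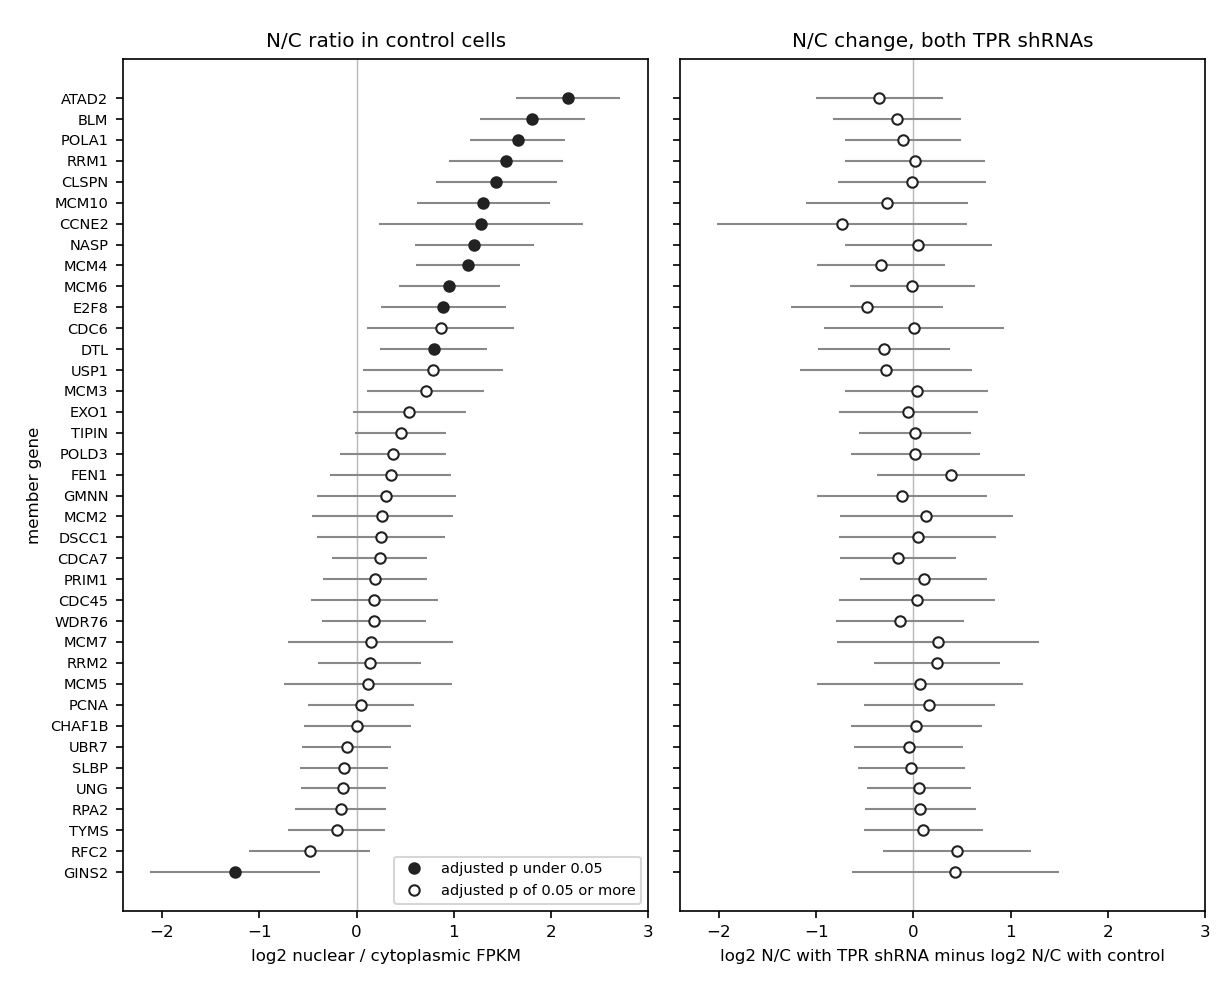
Log2 N/C ratio of each member in control cells (left) and its change with both TPR shRNAs (right), with 95% intervals on horizontal axes and genes ordered by the control ratio on the vertical axis. Filled points have an adjusted p under 0.05. On the left 12 genes are filled to the right of 0 and GINS2 to the left, and on the right every interval crosses 0.

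The N/C ratio of the members did not pass the test for a change with TPR depletion. No member was called with TPR A, TPR D or both shRNAs, and none had an unadjusted p under 0.05 (limma). The share called was 0% of all genes in each of these comparisons, with 1.72% at an unadjusted p under 0.05 for both shRNAs. The median change was 0.02 with both shRNAs and -0.09 without control replicate 2, where 31 of 38 were below 0 against 17 of 38 with it. The largest changes were -0.73 for CCNE2 (-2.02 to 0.55), -0.48 for E2F8, 0.45 for RFC2 and 0.43 for GINS2, and without control replicate 2 these were -0.43, -0.35, 0.32 and 0.31. A typical interval reached 0.69 on either side, and for 27 of 38 members it lay within a 2-fold change either way. Shifts of a single gene inside its interval are thus not excluded. The size of shift that the test could detect was not computed.

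The structure of the genes was compared because the study asked how pre-mRNA length and splicing bear on export. The study related these features to the change of the N/C ratio with TPR depletion. Here they were set beside the N/C ratio in control cells, a different measure, so the values below do not bear on the study's result. Correlations with the change are not given here. None of the 38 members is a single-exon gene, against 201 of 12381 protein-coding genes tested. Members had a median of 10 exons (7 for protein-coding genes), a pre-mRNA of 18862 nt (22896) and a transcript GC content of 45.4% (49.7%). Across members the control N/C ratio went with the number of exons (Spearman's rho = 0.55, Pearson's r = 0.61, n = 38) and with pre-mRNA length (rho = 0.41, r = 0.50). Across all protein-coding genes the same values were 0.33 and 0.34 for exons and 0.37 and 0.36 for length. When control replicate 2 was left out the members had 0.56 and 0.60 for exons and 0.29 and 0.45 for length, and protein-coding genes 0.31 and 0.32 for exons and 0.30 and 0.29 for length. These are correlations across genes measured in the same 6 libraries, and genes are not independent replicates.

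Other genes of the cell cycle were read from lists beside the members. Of 52 further replication genes none was called in the total fraction with both shRNAs (limma, 9 at an unadjusted p under 0.05), and the median was -0.25. With TPR D alone, PRIM2, the large primase subunit, fell: it was at 33.6, 62.6 and 25.4 FPKM with control, 30.5, 28.4 and 26.4 with TPR A and 18.4, 17.8 and 13.6 with TPR D (-1.11, -1.58 to -0.64, adjusted p = 0.0202). The call was lost under 8 of 20 alternatives. Among them were those that left out control replicate 1, control replicate 2 (-0.78, adjusted p = 0.0555) or 1 TPR D culture and changed nothing else. Of 52 genes of G2 and mitosis none was called, 21 were lower and none higher at an unadjusted p under 0.05, and the median was -0.39. Their culture medians in the control total libraries were 0.03, 0.46 and -0.49, the same order of cultures as for the members. Leaving out control replicate 2 gave a median of -0.21 with 1 gene at an unadjusted p under 0.05, and for the further replication genes of -0.12 with 3. Of 30 regulators of the cycle none was called in the total fraction (4 at an unadjusted p under 0.05), with a median of 0.08 (0.11 without that culture).

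Among these regulators, E2F1, an activator of the members, was at 32.3, 54.9 and 23.3 FPKM with control in the total fraction, 27.1, 27.9 and 26.0 with TPR A and 32.6, 27.5 and 26.8 with TPR D (-0.24 for both shRNAs, adjusted p = 0.613, and 0.06 without control replicate 2). CCNE1, the paralog of CCNE2, was at 56.9, 45.6 and 30.4 with control, 76.8, 68.3 and 47.9 with TPR A and 54.1, 55.4 and 41.8 with TPR D (0.46, adjusted p = 0.401). CDKN1A, the inhibitor of cyclin-dependent kinases known as p21, was at 115, 99.2 and 206 with control, 189, 218 and 203 with TPR A and 95.8, 118 and 108 with TPR D. Its control libraries were ordered opposite to the members, with the highest value in replicate 3. The differences were 0.68 with TPR A (adjusted p = 0.388) and -0.24 with TPR D (adjusted p = 0.753), and 0.43 and -0.48 without control replicate 2. Of the D-type cyclins, named after their values were seen, CCND2 rose with both shRNAs in the nuclear (1.36, adjusted p = 0.00491) and the cytoplasmic fraction (1.14, adjusted p = 0.0218), and CCND1 in the cytoplasmic fraction (1.04, adjusted p = 0.0479). CCND1 in the nuclear fraction (0.65, adjusted p = 0.267) and CCND3 in the nuclear (0.85, adjusted p = 0.274) and cytoplasmic fractions (0.50, adjusted p = 0.616) did not pass. None of the 3 calls was kept without control replicate 2 (CCND2 1.02 in both fractions, adjusted p = 0.0573 and 0.0525, and CCND1 1.06, adjusted p = 0.163). Of 19 alternatives, 3 lost the nuclear call of CCND2, 7 its cytoplasmic call and 12 that of CCND1.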

How the data were processed

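Poly(A)+ RNA of 27 U2OS libraries (3 shRNAs, 3 fractions, 3 cultures each) had been quantified by the study with Salmon on Gencode 19 transcripts (hg19) and summed to genes with tximport, and the FPKM values per gene were deposited by the authors. DESeq2, which the submitters' notes also name, needs counts, so log values were tested instead. FPKM were divided by a median-of-ratios factor per library (0.945 to 1.05), only nuclear-encoded genes averaging more than 1 FPKM were kept, and log2(FPKM + 0.1) was fitted with limma 3.58.1 (R 4.3.3, eBayes with trend) to all 9 groups at once, with Benjamini-Hochberg adjustment over 14611 genes and a threshold of 0.05. Fold changes are on that log2 scale, which slightly understates changes of low genes. Changes in a fraction are relative to the median gene, so a change of all mRNA together would not be seen. The fit was also run on simulated data, for the comparison of both shRNAs in the total fraction only. These data held no deviations shared by the libraries of a culture, and the outcome is not given here. "Both shRNAs" is the mean of the TPR A and TPR D groups.

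Gene symbols and structure came from the GENCODE 44 annotation lifted to GRCh37 (32776 of 34464 IDs matched), promoters from RefSeq. Further work used Python 3.11.15 with numpy 2.4.6, pandas 2.3.3, scipy 1.17.1 and matplotlib 3.10.9. Reads per FPKM were estimated from 5936 genes with 1 transcript, of length less 240 nt, where 87.7% of 28487 low values came within 0.1 of a whole number of reads.

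The members and lists were chosen with earlier results of these data known. Values by library are given for members past the threshold in a comparison with control, for the highest member of each role, and for CDKN1A, E2F1, CCNE1 and TPR. PRIM2 was the only list gene past the threshold in the total fraction. MCM5, CCNE2, ATAD2, GINS2, CCND1 and CCND2 were added after their values were seen. Same-numbered control and TPR A total libraries deviated together (r from 0.137 to 0.324), as did the nuclear and cytoplasmic libraries of a culture (0.223 to 0.468). Adding that number as a block to the TPR A comparison of total RNA called 0 members, as without it, and 2.59% of all genes. The N/C ratio in control cells is given with and without the culture as a block.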

Additional observations from a re-analysis of the deposited data

How the results depend on the processing

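Leaving out 1 culture at a time gave 0 to 1 called members in the total fraction for TPR A and for TPR D and 0 to 5 for both shRNAs, 0 to 1 in each nuclear and each cytoplasmic comparison, 0 for each N/C change, and 8 to 13 for the control N/C ratio, whose median ran from 0.28 to 0.49. The 5 came without control replicate 3, which also gave 1 call in each of the other total, nuclear and cytoplasmic comparisons. The nuclear call of CDCA7 was lost without control replicate 1 or 2, any 1 TPR A culture, or TPR D replicate 1 or 3, and no member was then called. It was also lost (0 called) with only the nuclear libraries in the fit and with only replicates 2 and 3, which left 8 calls for the control N/C ratio. The adjusted p of CDCA7 was 0.00193 under the replicate block and 0.357 in replicates 2 and 3.

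Under the replicate block CDCA7 was the 1 member called with TPR D and both shRNAs in the total fraction and in each nuclear and cytoplasmic comparison, where same-numbered control and TPR shRNA libraries did not all deviate together (r from -0.26 to 0.29). The block called 3.16 and 3.83% of all genes for those total comparisons. The block without control replicate 2, chosen after seeing the data, also called 1 member for TPR D in the total fraction, for each shRNA in the nuclear fraction and for TPR A and both shRNAs in the cytoplasmic fraction. These were CDCA7 in the total and nuclear fractions and CCNE2 in both cytoplasmic comparisons (1.44, adjusted p = 0.0199, and 1.18, adjusted p = 0.0385). The control N/C ratio had 16 calls with the replicate block and 17 with the culture as block. The pairing by culture left the N/C change at 0.

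The median control N/C ratio was 0.49 without control replicate 2 (with the replicate or culture block as well), 0.46 in replicate 1 alone and 0.52 as a mean. Replicate 1 alone, also chosen later, gave medians of -0.34 (TPR D) and -0.37 (both) in the nuclear fraction, and of -0.22 (TPR A) and -0.15 (both) for the N/C change. Over all settings, 548 counts and medians moved by less than the spread or stayed within 1.5 times, and the 40 given here moved further. Of the values of single genes, members and others, 11314 kept their sign and their side of the threshold and 935 turned sign with no call in either case. Another 73 gained a call and 98 lost one, among them those of CDCA7, PRIM2, CCND1 and CCND2. TPR itself lost its call with both shRNAs in the total fraction when only replicates 2 and 3 were used (-2.36). In the cytoplasmic fraction it was lost when only the libraries of that fraction were fitted (-2.64). Other pseudocounts (1 and 0.01), FPKM as deposited and other filters changed no count of called members by more than that. There were 3 cultures per shRNA, and the control cultures were far apart in the total fraction (SD of their member medians 0.57). The median member difference with both shRNAs was smaller than this SD. It includes control replicate 2, whose total library stood against its fraction label. No test of the S-phase genes as a group was run, and the smallest shift that could be detected was not computed.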

Other observations

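In 8 of the 9 cultures, 11 to 19 of 38 members had a lower FPKM in the total library than in both fractions of the same culture. This was so for 1 of 38 in control replicate 2, whose nuclear and total libraries stood apart. Over all genes the share was between 28.2 and 36.6% in the 9 cultures. MCM2, MCM5, MCM7, GINS2, RFC2, RPA2, RRM2, CHAF1B and UNG showed it in all 8 of the other cultures. The share of all genes that did so in all 8 was not counted here. The median transcript GC content of these 9 was 52.9%, against 44.4% for the other 29 members. Between the fractions, the change of the members with both shRNAs in the total fraction minus that in the nuclear fraction had a median of -0.20, and of 0.09 without control replicate 2, and no member passed the test of that difference (limma, 0 at an unadjusted p under 0.05). TPR A and TPR D differed for no member in the total fraction by the same test (0 at an unadjusted p under 0.05), with DSCC1, a subunit of an alternative clamp loader, furthest apart at 0.54.

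DSCC1 was also the member with the lowest cytoplasmic estimate for TPR D (-1.07), and is named after its values were seen. In the nuclear fraction it was at 29.0, 38.8 and 19.6 FPKM with control, at 28.1, 19.8 and 18.3 with TPR A and at 17.3, 14.2 and 13.5 with TPR D. All 3 TPR D libraries were below the 3 control libraries, as they also were for UNG and CDCA7 in this fraction. The share of all genes so placed was not counted here. For DSCC1, 2 of the TPR A libraries were above the lowest control. With both shRNAs the nuclear difference was -0.63 (-1.20 to -0.06, adjusted p = 0.359), or -0.39 without control replicate 2, and the cytoplasmic difference -0.67 (-1.24 to -0.10, adjusted p = 0.324).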
